A study of Mus musculus with 4 samples.

Results

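De novo fatty acid synthesis is represented here by 10 mouse genes, Acly, Me1, Acaca, Acacb, Fasn, Thrsp, Elovl6, Scd1, Scd2 and Mlxipl, followed across 4 Affymetrix arrays of DFAT cells. DFAT cells are fibroblast-like cells that form when lipid-filled fat cells de-differentiate in culture. The genes were taken by symbol: all 25 probe sets whose only platform symbol is one of the 10 were used, out of 45101 probe sets on the array and 18193 named genes. The cells came from 4 groups with 1 array each: Y-27632, an inhibitor of the ROCK kinases that drive actomyosin tension; DMSO, its solvent; an siRNA against Mkl1, which encodes an actin-regulated coactivator of the transcription factor SRF; and a control siRNA. All groups were grown in DMEM with 10% FBS under 5% CO2, and the labels name no agent that induces fat cell formation, no dose, no duration, no mouse strain and no fat depot.

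Fat cells build fatty acids in the cytosol from citrate that leaves the mitochondria. ATP citrate lyase (Acly) splits citrate into acetyl-CoA, acetyl-CoA carboxylase (Acaca, Acacb) makes malonyl-CoA from it, and fatty acid synthase (Fasn) joins these units into palmitate with NADPH that malic enzyme (Me1) helps to supply. The elongase Elovl6 lengthens palmitate to stearate, and the stearoyl-CoA desaturases Scd1 and Scd2 introduce the double bond that gives oleate and palmitoleate. Thrsp, also called Spot 14, is a small protein induced with lipogenesis, and Mlxipl encodes ChREBP, a carbohydrate-responsive transcription factor whose known targets include several of these genes.

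Promoter sequences are shown for Fasn and Thrsp, whose signals stood higher on both treated arrays, and for Elovl6, which stood on opposite sides of its controls. They come from RefSeq (build GRCm38.p6), which gave windows for 8 of the 10 genes, each 250 bases before to 50 bases after a gene's start. Capitals mark the letters CCAAT, the box bound by NF-Y, or their reverse complement.
Fasn, chr11:120824498-120824797, minus strand: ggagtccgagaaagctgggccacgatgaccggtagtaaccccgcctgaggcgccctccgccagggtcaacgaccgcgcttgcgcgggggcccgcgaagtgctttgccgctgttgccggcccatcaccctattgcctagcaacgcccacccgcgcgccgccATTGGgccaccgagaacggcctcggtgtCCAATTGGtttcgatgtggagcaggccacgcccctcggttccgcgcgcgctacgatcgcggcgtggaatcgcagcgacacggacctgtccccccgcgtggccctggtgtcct
Thrsp, chr7:97417501-97417800, minus strand: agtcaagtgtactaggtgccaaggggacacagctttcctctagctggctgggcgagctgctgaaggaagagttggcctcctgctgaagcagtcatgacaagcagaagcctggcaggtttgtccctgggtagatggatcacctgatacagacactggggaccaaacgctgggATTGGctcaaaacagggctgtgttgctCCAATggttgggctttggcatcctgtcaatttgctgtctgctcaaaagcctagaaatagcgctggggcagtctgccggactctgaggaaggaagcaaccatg
Elovl6, chr3:129532136-129532435, plus strand: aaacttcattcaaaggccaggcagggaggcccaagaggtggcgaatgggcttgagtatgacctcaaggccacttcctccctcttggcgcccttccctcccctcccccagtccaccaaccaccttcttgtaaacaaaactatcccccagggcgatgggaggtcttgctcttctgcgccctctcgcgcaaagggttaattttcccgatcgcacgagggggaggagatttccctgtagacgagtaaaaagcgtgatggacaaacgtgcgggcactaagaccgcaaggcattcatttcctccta

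Fasn held 3 such boxes, of which 2 overlap in the run CCAATTGG, which also contains an E-box match, and Thrsp held 2. Elovl6 held none of the 5 motifs searched on both strands, which were CCAAT, the sterol response element of the LDL receptor type, the E-box CANNTG, its form CACGTG, and the GC box GGGCGG. Of the 10 windows of the 8 genes, 6 held CCAAT, 7 CANNTG, 3 GGGCGG, 1 CACGTG and 0 the sterol response element. Among all 32851 promoter windows of the same length these letters were found in 37.4%, 72.3%, 35.7%, 7.15% and 0.0913%. Besides Fasn and Thrsp, CCAAT was found for Acly, Me1, Acacb and Mlxipl, and it was absent for Acaca as for Elovl6. A match describes letters in a window and not a used site.

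Values are log2 signals made by the authors with RMA, and each difference is a log2 difference, with 1 meaning 2-fold. With 1 array per group no difference has a replicate check and no p-value can be given. The difference between both control arrays, control siRNA minus DMSO, is the only background these data hold. It also contains the difference between transfection and solvent, so it is not a replicate difference. It is given for the probe set used for each member and named pathway gene, and as the median of each pathway list. A gene was analysed when at least 1 of its arrays read 5.69 or more, the median over every probe set and array. This left 11600 genes and 8 of the 10 members, each of which reached it on all 4 arrays. Thrsp only just reached it with DMSO, at 5.70. Acacb (highest 5.46) and Mlxipl (highest 4.56) did not reach it on any array, so their values are given without being counted.

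**Figure D1:**
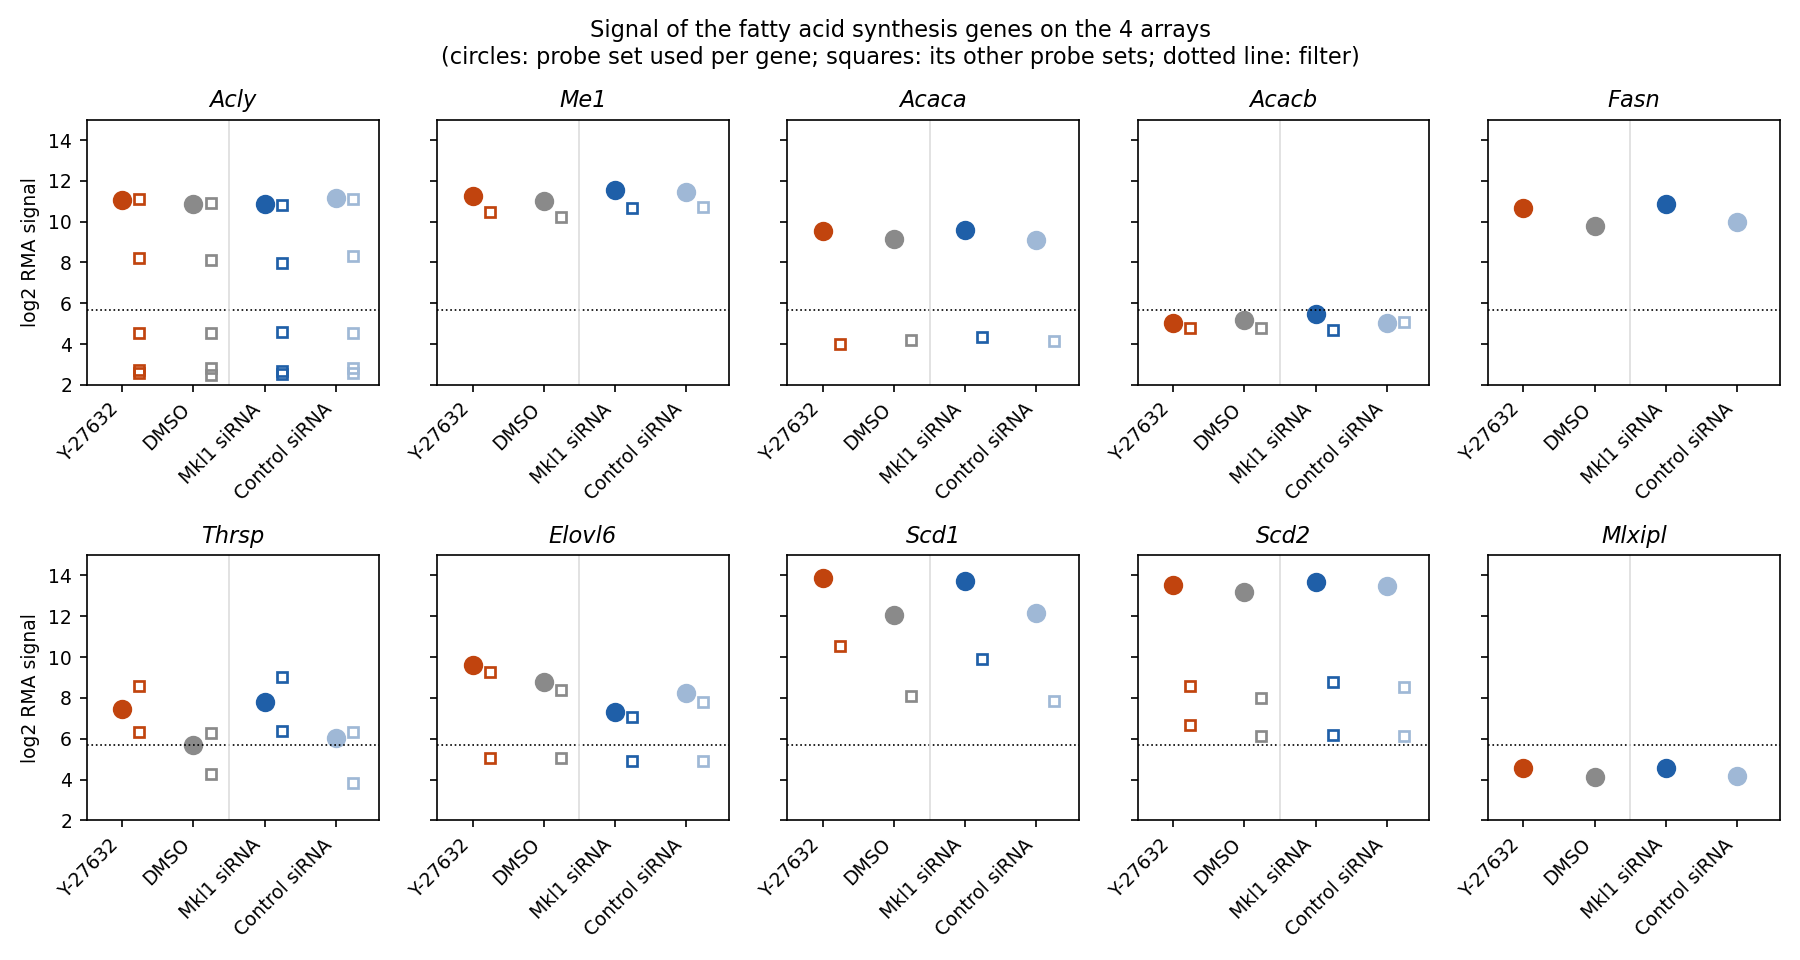
Log2 RMA signal of each gene (y axis) on the Y-27632, DMSO, Mkl1 siRNA and control siRNA arrays (x axis, 1 array each); circles are the probe set used for the gene, squares its other probe sets, shifted to the right, and the dotted line is the filter at 5.69. Scd1, Fasn and the used Thrsp probe set are higher on both treated arrays than on their controls, Elovl6 is highest with Y-27632 and lowest with Mkl1 siRNA, and Acacb and Mlxipl lie under the filter.

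Scd1, Fasn and Thrsp stood higher on both treated arrays. Scd1, the desaturase of adult fat and liver, had a log2 signal of 13.89 with Y-27632 against 12.06 with DMSO, and 13.71 with Mkl1 siRNA against 12.16 with control siRNA. Both treated arrays were thus above both controls, by 1.83 (a ratio of 3.56) for Y-27632 over DMSO and by 1.55 (2.94) for Mkl1 siRNA over control siRNA, while the controls differed by 0.10. The second Scd1 probe set ran the same way with larger differences, 2.47 with Y-27632 and 2.06 with Mkl1 siRNA. Ranked from the highest difference among 11600 genes, Scd1 was at rank 43 with Y-27632 and at rank 78 with Mkl1 siRNA.

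Scd2, the neighbouring desaturase gene, differed little on its used probe set. Its signal was 13.52 with Y-27632 against 13.19 with DMSO, and 13.66 with Mkl1 siRNA against 13.48 with control siRNA. The differences of 0.33 and 0.18 were close in size to the difference of 0.30 between the control arrays, and Y-27632 exceeded control siRNA by 0.04. The other Scd2 probe sets gave 0.59 and 0.55 with Y-27632 and 0.25 and 0.05 with Mkl1 siRNA. Between the controls they differed by 0.57 and 0.01. The other stearoyl-CoA desaturase gene measured, Scd3, stayed below the filter on its used probe set. It read 5.46 with Y-27632 against 5.05 with DMSO and 5.23 with Mkl1 siRNA against 4.87 with control siRNA, and control siRNA minus DMSO was -0.17. Its 2 probe sets ran from 0.06 to 0.41 with Y-27632 and from -0.12 to 0.35 with Mkl1 siRNA.

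Fasn, read by 1 probe set, had a signal of 10.67 with Y-27632 against 9.78 with DMSO, and 10.85 with Mkl1 siRNA against 10.01 with control siRNA. Its differences of 0.88 and 0.85 were nearly equal and short of 2-fold, as ratios of 1.85 and 1.80, and the controls differed by 0.23. Against the other control array they were 0.66 for Y-27632 over control siRNA and 1.07 for Mkl1 siRNA over DMSO, the second of which passes 2-fold.

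Thrsp gave different sizes on its 3 probe sets. The probe set with the highest mean read 7.47 with Y-27632 against 5.70 with DMSO and 7.80 with Mkl1 siRNA against 6.05 with control siRNA, with differences of 1.77 and 1.75 and a difference of 0.35 between the controls. The second read 8.57 with Y-27632 against 4.29 with DMSO and 9.01 with Mkl1 siRNA against 3.82 with control siRNA, differences of 4.28 and 5.19, with -0.47 between the controls. On that probe set both control arrays lay below the filter and both treated arrays well above it. The third stayed between 6.27 and 6.38 on all 4 arrays and differed by 0.08 and 0.07. On the first and second probe sets both treated arrays were above both controls. The name of the first carries a suffix for probe sets that can match more than 1 transcript.

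At the carboxylase step, Acaca was higher by less, on its used probe set. Acaca, the cytosolic acetyl-CoA carboxylase that limits the rate of the pathway, had a signal of 9.55 with Y-27632 against 9.13 with DMSO, and 9.58 with Mkl1 siRNA against 9.10 with control siRNA. The differences were 0.42 and 0.48, ratios of 1.34 and 1.39, and the controls differed by -0.03. Both treated arrays were therefore above both control arrays, which lay within 0.03 of each other. A second Acaca probe set was below the filter on all arrays, between 4.01 and 4.35. It differed by -0.21 with Y-27632 and by 0.22 with Mkl1 siRNA. Acacb, the mitochondrial-surface carboxylase whose malonyl-CoA restrains fatty acid oxidation, read 5.04 with Y-27632 against 5.19 with DMSO and 5.46 with Mkl1 siRNA against 5.05 with control siRNA on its stronger probe set, where the controls differed by -0.14. Its weaker probe set read 4.78 with Y-27632 and 4.78 with DMSO, and 4.70 with Mkl1 siRNA against 5.08 with control siRNA, so the Acacb probe sets ran in opposite directions with Mkl1 siRNA.

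The genes that feed the pathway, Acly and Me1, were both above DMSO with Y-27632. With Mkl1 siRNA they stood on opposite sides of control siRNA on their used probe sets. Acly had a signal of 11.08 with Y-27632 against 10.86 with DMSO, and 10.86 with Mkl1 siRNA against 11.15 with control siRNA. It was thus higher by 0.22 with Y-27632 and lower with Mkl1 siRNA, at -0.29, while control siRNA exceeded DMSO by 0.29. Its other probe sets above the filter gave differences of 0.18 and 0.08 for Y-27632 and of -0.28 and -0.34 for Mkl1 siRNA. The remaining 3 Acly probe sets stayed below the filter. Me1 had a signal of 11.25 with Y-27632 against 10.99 with DMSO, and 11.55 with Mkl1 siRNA against 11.48 with control siRNA. For Me1 the largest of the 3 differences was that between the controls, 0.49, against 0.26 for Y-27632 and 0.07 for Mkl1 siRNA. Both transfected arrays were above both untransfected ones. The second Me1 probe set, above the filter on all 4 arrays, differed by 0.25 with Y-27632 and 0.49 between the controls. With Mkl1 siRNA it was at -0.03, on the same side as Acly. Against control siRNA, Y-27632 stood at -0.07 for Acly and -0.23 for Me1, on the other side of 0.

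Elovl6 was the member on which the treatments stood furthest apart. Its signal was 9.59 with Y-27632 against 8.76 with DMSO, and 7.29 with Mkl1 siRNA against 8.23 with control siRNA. Y-27632 was the highest array and Mkl1 siRNA the lowest, with both controls between them. The differences were 0.83 with Y-27632 (a ratio of 1.78) and -0.93 with Mkl1 siRNA (a ratio of 0.524), and control siRNA was itself below DMSO, at -0.53. The second probe set kept the order of the arrays, with 9.26 with Y-27632 against 8.38 with DMSO and 7.06 with Mkl1 siRNA against 7.79 with control siRNA. The remaining Elovl6 probe set was below the filter and differed by -0.01 with Y-27632 and by 0.00 with Mkl1 siRNA. The directions held against the other control array, at 1.37 for Y-27632 over control siRNA and -1.47 for Mkl1 siRNA over DMSO. Between the treated arrays Elovl6 was lower with Mkl1 siRNA than with Y-27632, at -2.30. It was the only 1 of the 8 analysed members at least 2-fold lower in that comparison, where 2.75% of all genes were, and 0 were at least 2-fold higher, where 1.24% were. Of 11600 genes, 46 (0.397%) were at least 1.5-fold higher with Y-27632 and at least 1.5-fold lower with Mkl1 siRNA, against 177 (1.53%) at least 1.5-fold higher in both.

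Mlxipl was below the filter, at 4.56 with Y-27632 against 4.13 with DMSO and 4.55 with Mkl1 siRNA against 4.16 with control siRNA. Both treated arrays were above both controls, by 0.43 and 0.40 with 0.02 between the controls, at a level where RMA compresses differences.

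**Figure D2:**
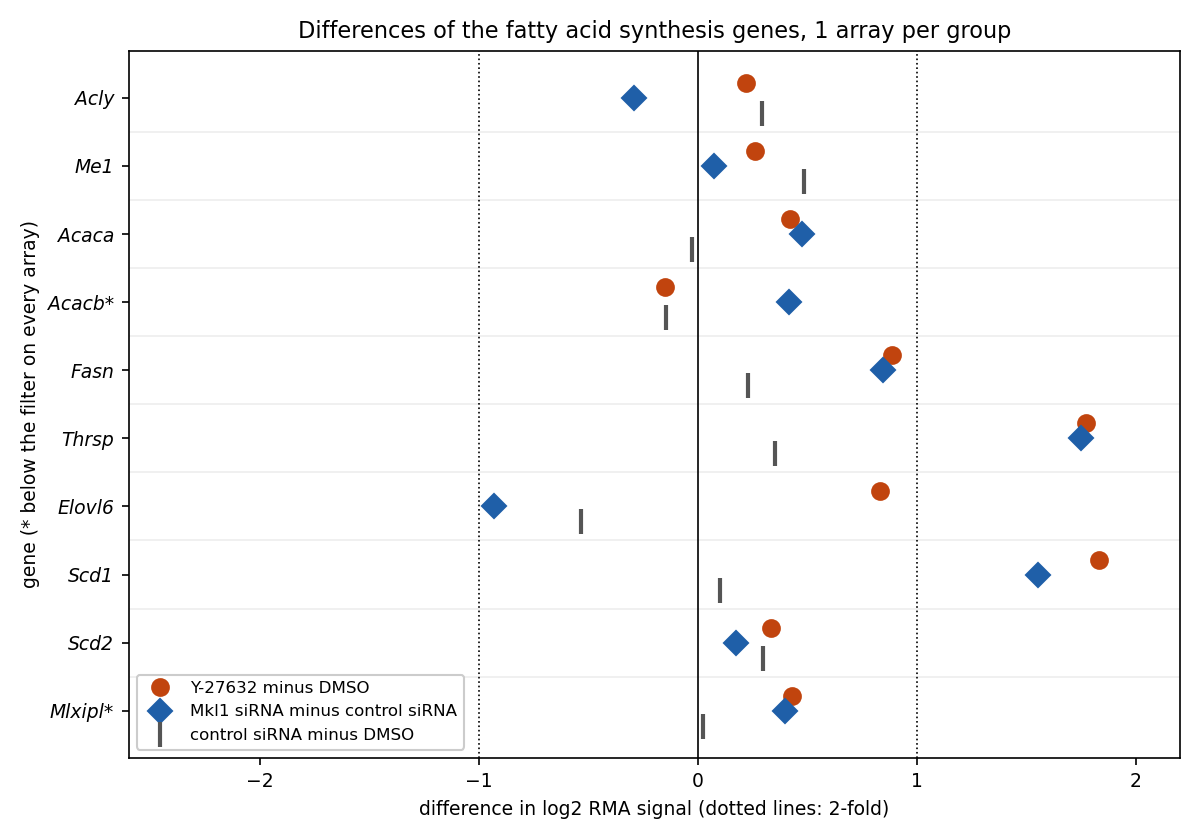
Differences in log2 RMA signal (x axis) of the 10 genes (y axis, in pathway order) for Y-27632 minus DMSO (circles), Mkl1 siRNA minus control siRNA (diamonds) and control siRNA minus DMSO (bars), 1 array per group; dotted lines mark 2-fold and asterisks genes below the filter. Thrsp and Scd1 pass 2-fold in both treatment comparisons, Fasn lies at 0.88 and 0.85, and Elovl6 at 0.83 and -0.93.

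Counted together, 8 of the 8 analysed members were above DMSO with Y-27632, where 50.4% of all genes were. The members ran from 0.22 for Acly to 1.83 for Scd1, with a median of 0.63 beside 0.00 for all genes. Scd1 and Thrsp, 2 of 8, were at least 2-fold higher, where 1.27% of all genes were, and 0 were at least 2-fold lower, where 0.224% were. From 1.5-fold upward there were 4 (Scd1, Thrsp, Fasn and Elovl6), where 3.0% of all genes were. With Mkl1 siRNA, 6 of 8 were above control siRNA, where 50.1% of all genes were. The member median was 0.33 beside 0.00 for all genes. The same 2 genes were at least 2-fold higher, where 1.79% of all genes were, and 0 were at least 2-fold lower, where 1.74% were. From 1.5-fold upward, 3 were higher (Thrsp, Scd1 and Fasn), where 5.42% of all genes were, and 1 was lower (Elovl6), where 5.91% were. Between the controls, 6 of 8 were higher with control siRNA, where 48.5% of all genes were. The member median was 0.26 beside -0.01 for all genes. In that comparison 0 members were at least 2-fold higher or lower, where 0.957% and 1.09% of all genes were. Both treatment comparisons are free of shared arrays, but each shares 1 array with the control comparison. Against the other control array, 6 of 8 were above control siRNA with Y-27632, where 52.4% of all genes were. With Mkl1 siRNA 6 of 8 were above DMSO, where 49.1% were. At least 2-fold above control siRNA with Y-27632 were 3 of 8 (Scd1, Thrsp and Elovl6), where 2.03% of all genes were, and 0 were at least 2-fold lower, where 0.75% were. With Mkl1 siRNA, 3 of 8 were at least 2-fold above DMSO (Thrsp, Scd1 and Fasn), where 2.73% of all genes were, and 1 (Elovl6) at least 2-fold below it, where 3.23% were. The genes were chosen with earlier results of these arrays known, so these counts describe them and are no test.

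**Figure D3:**
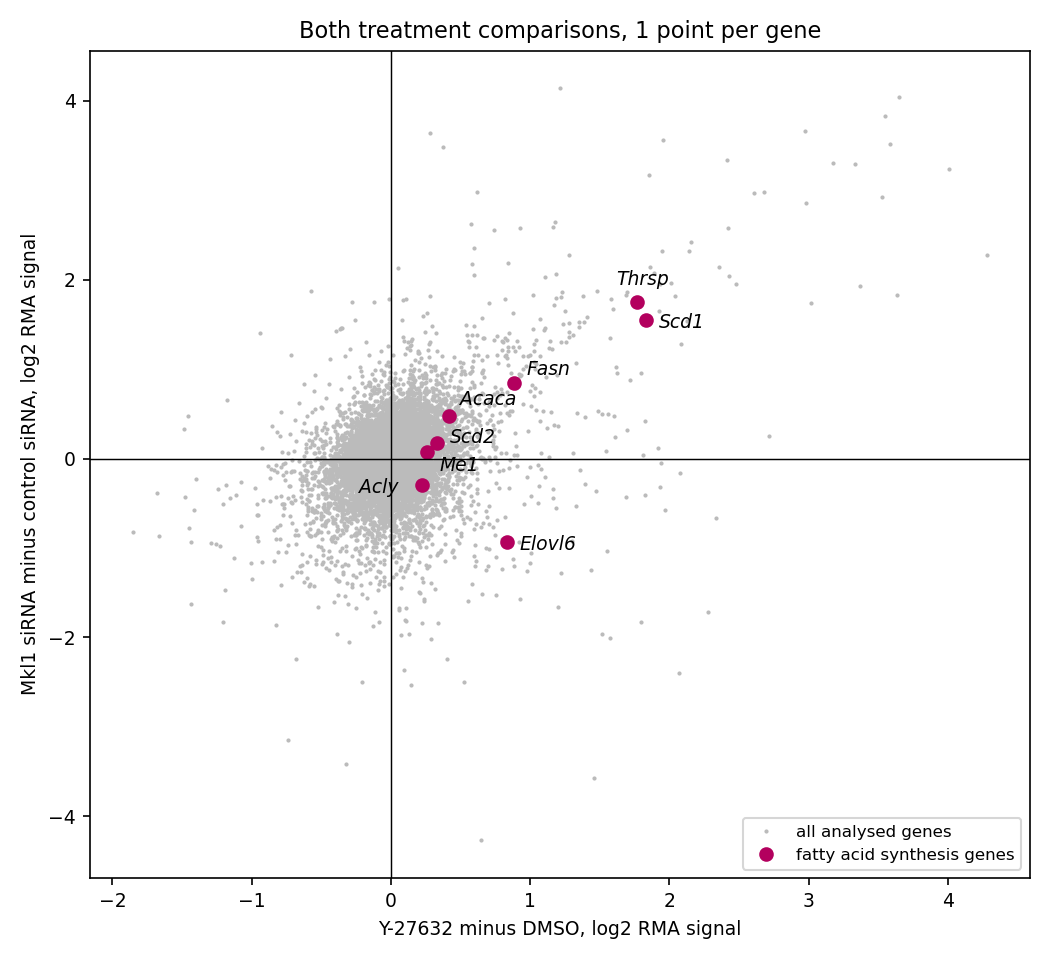
Difference in log2 RMA signal for Y-27632 minus DMSO (x axis) and for Mkl1 siRNA minus control siRNA (y axis), 1 point per gene: grey for the 11600 analysed genes and dark for the 8 analysed fatty acid synthesis genes. Thrsp, Scd1 and Fasn lie to the upper right, Elovl6 to the lower right at 0.83 and -0.93, and Acaca, Scd2, Me1 and Acly within the dense centre.

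Markers of mature fat cells stood higher on the same arrays. The 8 markers, Adipoq, Fabp4, Cidec, Pparg, Cebpa, Lpl, Plin4 and Cd36, all reached the filter, and their mean log2 signal was 11.02 with Y-27632 against 9.22 with DMSO and 11.24 with Mkl1 siRNA against 9.36 with control siRNA. In each treatment comparison 8 of 8 were above their control and 6 of 8 by at least 2-fold, with medians of 1.32 and 1.72, and of 0.02 between the controls. Of all genes, 50.4% were above DMSO with Y-27632 and 1.27% at least 2-fold, while 50.1% were above control siRNA with Mkl1 siRNA and 1.79% at least 2-fold. Cidec lay below the filter on both control arrays and Cd36 on the DMSO array. Of the 6 markers that reached the filter on all 4 arrays, 6 were above their control and 4 at least 2-fold in each comparison, with medians of 1.17 and 1.52; among the 10709 genes that did so, 0.924% and 1.35% were at least 2-fold higher. In bulk RNA, more cells of a type and more RNA per cell cannot be told apart, and the part of the fat cell markers in the values above was not tested. Of 8 progenitor and fibroblast markers, 7 were measured and 6 reached the filter on all 4 arrays; Cd34 reached it with Y-27632 alone. With Y-27632 5 of these 6 were above DMSO (median 0.05), and with Mkl1 siRNA 6 of 6 were below control siRNA (median -0.36), with a median of 0.09 between the controls. The leukocyte markers Ptprc, Cd68, Adgre1 and Itgam were below the filter on every array, but Csf1r read between 6.38 and 6.45. The endothelial markers Pecam1, Cdh5 and Tek were below it too, while Kdr just reached it, at 5.77 with DMSO and 5.79 with Mkl1 siRNA. Of the hepatocyte markers Alb and Apoa1 were below it and Ttr read between 5.99 and 6.30. Of the epithelial markers Krt14 and Krt8 were below it, Krt5 reached it with control siRNA alone at 5.78, and Epcam read 9.98 with Y-27632 against 9.73 with DMSO and 9.20 with Mkl1 siRNA against 9.75 with control siRNA. The Epcam probe sets ran from -0.55 to 0.09 with Mkl1 siRNA. The targeted transcript, listed as Mrtfa, read 7.70 with Mkl1 siRNA against 8.55 with control siRNA. As a sign of RNA quality, the signal of the 3' Actb control probe set exceeded that of the 5' one by 1.10 with Y-27632 against 0.84 with DMSO, and by 0.96 with Mkl1 siRNA against 0.81 with control siRNA. The median of the 18S ribosomal RNA control probe sets was 11.36 with Y-27632 against 11.83 with DMSO, and 11.55 with Mkl1 siRNA against 12.04 with control siRNA, lower on both treated arrays. The part of these RNA measures in the values above was not tested either.

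Among 13 measured genes of transcriptional control, 10 were above DMSO with Y-27632 (median 0.12) and 8 were above control siRNA with Mkl1 siRNA (median 0.09). The median between the controls was -0.02. For this list and those below, the shares of all genes were 50.4% above DMSO with Y-27632 and 50.1% above control siRNA with Mkl1 siRNA. Srebf1, whose product SREBP-1c switches on fatty acid synthesis genes, differed by 0.19 and 0.37, and by 0.11 between the controls. Insig1, which holds the SREBP precursors in the endoplasmic reticulum and is itself an SREBP target, was at least 2-fold higher with Y-27632, at 10.10 against 8.76 with DMSO, a difference of 1.33, and differed by 0.51 with Mkl1 siRNA, with -0.17 between the controls. Its relative Insig2 differed by 0.64 and 0.02, and by 0.20 between the controls. Srebf2, which encodes the SREBP form best known for sterol synthesis, differed by -0.25 with Y-27632 and by -0.91 with Mkl1 siRNA, with 0.26 between the controls. Nr1h3, which encodes the oxysterol receptor LXR alpha, an activator of Srebf1 and Scd1, differed by 0.40 and 0.65, and Mlx, the obligate partner of ChREBP, by 0.29 and 0.09, with -0.02 between the controls. For Nr1h3 control siRNA was below DMSO, at -0.37, so that Mkl1 siRNA exceeded DMSO by 0.28.

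Genes that supply citrate, acetyl-CoA and NADPH were above their control for 9 of 11 with Y-27632 (median 0.32) and for 8 of 11 with Mkl1 siRNA (median 0.50), with a median of 0.03 between the controls. Pcx, the pyruvate carboxylase that refills the mitochondrial citrate pool, had a signal of 10.33 with Y-27632 against 8.47 with DMSO and 10.74 with Mkl1 siRNA against 8.60 with control siRNA. Its differences of 1.86 and 2.14 exceeded those of every analysed member on its used probe set, and the controls differed by 0.13. Idh1, the cytosolic isocitrate dehydrogenase that makes NADPH, had a signal of 12.14 with Y-27632 against 11.44 with DMSO and 12.89 with Mkl1 siRNA against 11.15 with control siRNA, differences of 0.70 and 1.74, with -0.29 between the controls. Taldo1, transaldolase of the pentose phosphate pathway, differed by 0.32 and 1.04, and by -0.03 between the controls. Aco1, the cytosolic aconitase, differed by 0.76 and 0.74, with -0.13 between the controls, but its 3 probe sets ran from -0.04 to 0.76 with Y-27632 and from -0.53 to 0.74 with Mkl1 siRNA. Counted at 2-fold, 1 of 11 was higher with Y-27632, where 1.27% of all genes were, and 3 of 11 with Mkl1 siRNA, where 1.79% were. Me1, the member with the same role in NADPH supply, was not past 2-fold in either.

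Elongation and desaturation partners were divided. Of 12 analysed, 6 were above DMSO with Y-27632 (median 0.01) and 7 above control siRNA with Mkl1 siRNA (median 0.05), with a median of 0.09 between the controls. Hacd2, a dehydratase of the elongation cycle that acts after the elongase step, was at least 2-fold higher in both, by 1.13 and 1.23. Its signal was 11.52 with Y-27632 against 10.38 with DMSO, and 11.56 with Mkl1 siRNA against 10.33 with control siRNA, and the controls differed by -0.05. Its relative Hacd3 differed by 0.25 and 0.90, and by 0.18 between the controls. Hacd4 differed by -0.68 and -0.80, and control siRNA exceeded DMSO by 1.06 for it. Elovl1, an elongase of very long saturated chains, differed by -0.13 and -0.88, and its 4 probe sets ran from -0.91 to -0.82 with Mkl1 siRNA. The controls differed by 0.23 for it. Elovl6 was thus not the only elongase below control siRNA with Mkl1 siRNA.

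Regulators of acetyl-CoA carboxylase differed by less than 2-fold throughout. Of 9 analysed, 3 were above DMSO with Y-27632 (median -0.02) and 6 above control siRNA with Mkl1 siRNA (median 0.13), with a median of 0.02 between the controls. Mid1ip1, the relative of Thrsp that promotes polymerisation of the carboxylase, differed by -0.02 and -0.28, and by -0.05 between the controls, where Thrsp differed by 1.77 and 1.75. Subunits of AMPK, the kinase that inactivates the carboxylase, gave 0.33 and 0.39 for Prkaa1, -0.03 and -0.30 for Prkab1 and -0.15 and -0.52 for Prkab2, with 0.19, 0.02 and -0.09 between the controls. The separate mitochondrial route of fatty acid synthesis, which serves lipoate formation, had 6 of 6 genes above DMSO with Y-27632 (median 0.20) and 5 of 6 above control siRNA with Mkl1 siRNA (median 0.28), with a median of 0.04 between the controls. The reductase Mecr differed by 0.25 and 0.73, the condensing enzyme Oxsm by 0.23 and 0.36, the acyl carrier protein Ndufab1 by 0.23 and 0.34, and the transacylase Mcat by 0.02 and 0.23. Between the controls these were at -0.24 for Mecr, 0.08 for Oxsm, 0.04 for Ndufab1 and -0.04 for Mcat. The 3 Mecr probe sets ran from -0.36 to 0.36 with Y-27632. The 5 Oxsm probe sets ran from -0.11 to 0.29 with Y-27632 and from -0.27 to 0.36 with Mkl1 siRNA.

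**Figure D4:**
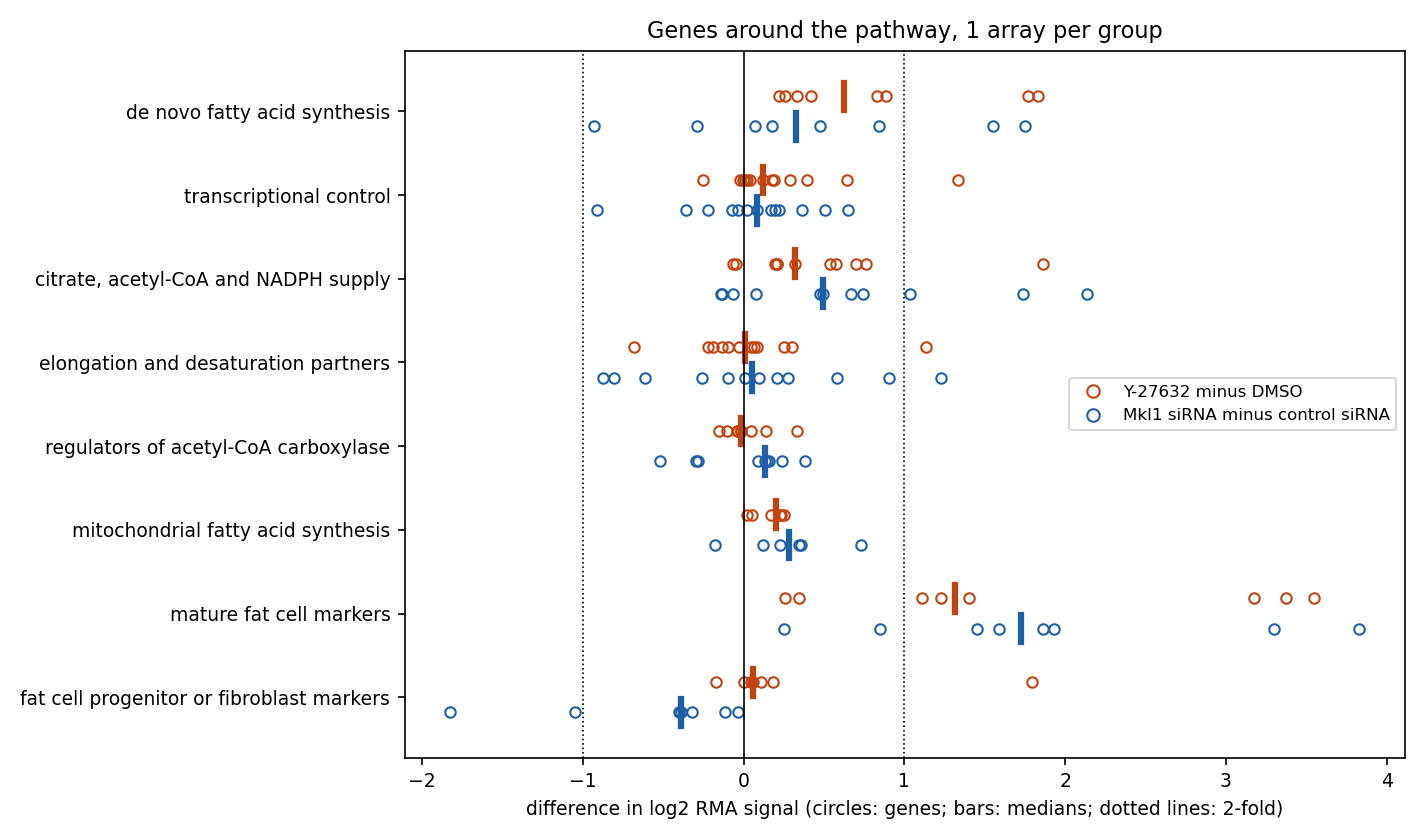
Difference in log2 RMA signal (x axis) for the analysed genes of each list (y axis), with Y-27632 minus DMSO above Mkl1 siRNA minus control siRNA; circles are genes, bars medians and dotted lines 2-fold, 1 array per group. The mature fat cell markers reach the highest medians, 1.32 and 1.72, and the synthesis genes have medians of 0.63 and 0.33.

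Likeness to other genes was measured as the root mean square distance between log2 signals over the 4 arrays, each gene centred on its own mean, for the 4 members whose arrays spanned at least 1. Nearest to Fasn were 1700029I15Rik at 0.02, the peroxisome assembly gene Pex16 at 0.06 and the antiproliferative gene Tob1 at 0.06. Nearest to Thrsp were Klb, the FGF21 co-receptor, at 0.06, the mitochondrial dicarboxylate carrier Slc25a10 at 0.09 and the adaptor Sh2b2 at 0.09. Nearest to Scd1 were Agpat2, an acyltransferase of triglyceride synthesis, at 0.11, Rasd1 at 0.11 and Rnf144b at 0.12. Nearest to Elovl6 were the laminin chain gene Lama2 at 0.08, the metalloproteinase gene Adamts12 at 0.09 and Arhgap6 at 0.10. Lama2 had a signal of 9.79 with Y-27632 against 8.87 with DMSO, and 7.58 with Mkl1 siRNA against 8.52 with control siRNA, the same order of arrays as Elovl6, and -0.35 between the controls. Klb, Sh2b2 and Rnf144b lay below the filter on both control arrays, and Arhgap6 with Mkl1 siRNA, so their distances rest partly on weak signals. With 4 arrays many genes can lie this close, and the distances are descriptions.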

How the data were processed

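Gene expression was measured on 4 single-colour Affymetrix mouse arrays of DFAT cells, grouped by the sample titles. The deposited values are log2 signals, which the authors computed with RMA according to the processing notes of the submitters. Its version, its chip definition and the arrays it was run on were not given in the sources used here. RMA subtracts background, equalises the distributions of arrays and summarises probes, so it compresses weak differences and hides differences in total RNA. The array medians lay between 5.67 and 5.71.

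Of 45101 probe sets, 34958 had 1 platform symbol, which was updated through gene numbers for 34754. Each gene was read by its probe set of highest mean, and was analysed where at least 1 array read 5.69 or more. Differences and counts were computed with Python 3.11.15 and pandas 2.3.3; no test was possible. On simulated data for Y-27632 minus DMSO, 99.5% of 200 changed genes were recovered. All simulated shifts were set above 2-fold, with noise smaller than the spread between the control arrays. This checks the steps alone and gives no sensitivity for calls from single arrays. Promoter sequences came from RefSeq (GRCm38.p6).

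Named genes were the 10 members, up to 4 per list with the largest difference in either treatment comparison, Srebf1, Nr1h3, Insig1, Mlx, Mid1ip1 and Scd3, and the 3 nearest genes. Members and lists were chosen with earlier results of these data known. List genes without values, such as G6pdx, were not analysed here. Alternatives were another choice of probe set, other filters, loess or median centring, other thresholds and the other control array.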

Additional observations from a re-analysis of the deposited data

Results flagged for a closer look

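Elovl6 was singled out because it stood at least 1.5-fold from its control in opposite directions under both treatments. It was higher by 0.83 with Y-27632 relative to DMSO and lower with Mkl1 siRNA relative to control siRNA, at -0.93. The difference between these effects was not tested, since each group had 1 array.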

How the results depend on the processing

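No paired analysis was possible because each group had 1 array, and no replicate could be left out. With Y-27632 the number of members at least 2-fold higher was 2; it was 1 with the filter at the 75th percentile, which removes Thrsp, and 4 with a 1.5-fold threshold. With Mkl1 siRNA the number higher was 2 and became 1 with that same filter, while the number lower was 0 and became 1, Elovl6, both with the 1.5-fold threshold and against DMSO. Median differences ran from 0.42 to 0.67 with Y-27632 (0.63 as reported) and from 0.18 to 0.52 with Mkl1 siRNA (0.33 as reported). Of 236 single-gene values under the alternatives, 9 lay on the other side of 0 and none of these 9 came from loess or median centring. Median centring moved values by less than the smallest reported member difference, so it could not change a sign. With the probe sets that can match more than 1 transcript left out, Thrsp stood at 4.28 with Y-27632 and 5.19 with Mkl1 siRNA. That probe set was below the filter on both control arrays. The other Thrsp probe set without the suffix, above the filter on all 4 arrays, differed by only 0.08 and 0.07. With the mean of all its probe sets Elovl6 stood at -0.56 with Mkl1 siRNA, where a probe set below the filter enters the mean, and at -0.83 with the mean of those that reach it, an alternative added after seeing the data. The SD of the difference between the control arrays over all genes, 0.36, stood in for a replicate spread. Because these arrays also differ by transfection against solvent, it is not the replicate spread of any gene. The signal over background limits Acacb and Mlxipl, which could not be read above the filter.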

Other observations

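Genes other than Elovl6 were also higher with Y-27632 and lower with Mkl1 siRNA. They were ranked by the smaller of both absolute differences. At the top, and chosen after its values were seen, was Mgp, an inhibitor of calcification. Mgp was at 2.07 for Y-27632 minus DMSO and at -2.39 for Mkl1 siRNA minus control siRNA. Control siRNA exceeded DMSO by 2.81 for Mgp, whereas it was below DMSO for Elovl6. Next after Mgp in that ranking came Cd34, a surface marker of fat cell progenitors. Its signal was 6.36 with Y-27632 against 4.57 with DMSO, and 3.53 with Mkl1 siRNA against 5.36 with control siRNA. Cd34 reached the filter on the Y-27632 array alone, so the Mkl1 siRNA difference sets side by side a pair of arrays below it. Some deposited values were identical on a pair of arrays, as for the weaker Acacb probe set with Y-27632 and DMSO: this held for 268 of 45101 probe sets (0.594%) in that pair, of which 50 reached the filter.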
